A study of Mus musculus with 6 samples.

Results

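Mouse oviductal smooth muscle cells on day 2 of pregnancy had 1896 accessible regions that lay within 1 kb of a transcription start of a noncoding gene, had no protein-coding start within 1 kb, and were called in both genotypes. These 1896 regions were 4.11% of the 46152 regions shared by WT and Pbrm1 cKO cells and were found among 66679 merged regions in all. Accessibility was measured by ATAC-seq, in which the Tn5 transposase inserts adapters into open DNA. Entries of the reproducible peak list of each genotype were merged, the lists were merged with each other, and a region was kept when it overlapped entries of both lists. Starts were the first bases of all transcripts of genes other than protein-coding genes in the GENCODE M21 annotation of GRCm38 (mm10). The members were thus chosen by measured values, the reproducible calls in both genotypes, so their strength and their presence in both genotypes are given below as descriptions. At the limits of the rule, the outermost member lay 999 bp from its noncoding start, at Gm22477, and the nearest region left out lay 1001 bp away, at Gm15870. The member nearest to a protein-coding start lay 1010 bp from Esrp2, and a region at Gm14376 was left out because it lay 998 bp from a start of Cttn.

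There were 6 libraries, 3 labelled WT and 3 labelled Pbrm1 cKO, each from primary cells of mice aged 8 to 12 weeks. The study's methods describe plating for some hours before harvest for uterine stromal cells and give no such steps for oviductal muscle cells. PBRM1 is a subunit of the PBAF form of the SWI/SNF chromatin remodelling complex. Per the study's methods, Pbrm1 cKO females carried Pbrm1 fl/fl alleles with a Cre recombinase expressed from the progesterone receptor gene (PR IRES-cre), and controls were Pbrm1 fl/fl, so floxed alleles were common to both groups and deletion was limited to cells that express that receptor. The labels do not say whether a library came from 1 animal or from a pool, so p-values measure the spread between these libraries. Peak lists cannot show whether Pbrm1 was deleted. All 7 smooth muscle marker genes searched, among them Acta2, Myh11 and Tagln, had a shared region within 1 kb of a start. Of 7 epithelial markers only the ciliated cell factor Foxj1 did, and Epcam, Cdh1, Krt8, Krt18, Pax8 and Ovgp1 had no region. The Foxj1 region had a mean rank of 6.58% of all regions, with 0 as the strongest, and the best regions of the smooth muscle markers had mean ranks of 15.2% to 72.7%. A shared region was also found for 3 of 4 fibroblast, 2 of 3 endothelial and 1 of 3 immune markers, and the part of these other cells in the results was not tested. In cell mixtures such as these, fewer cells with an open region and a less open region in each cell cannot be told apart.

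Noncoding genes in the strict sense produce RNAs that are not translated. Here the word covers every gene not annotated as protein-coding, so pseudogenes, immune receptor segments and models still to be tested are included. Long noncoding RNAs and the host transcripts of microRNAs and snoRNAs are made by RNA polymerase II, often from promoters with GC boxes and CpG islands like those of protein-coding genes, whereas 7SK, Y RNAs, vault RNAs and U6 are made by RNA polymerase III. Pseudogenes are copies of genes that lost their coding function, and many annotated starts among them are not known to be active.

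By the nearest start, 707 regions (37.3%) belonged to long intergenic RNAs, 298 (15.7%) to pseudogenes, 252 (13.3%) to antisense RNAs, 200 (10.6%) to other long noncoding RNAs and 177 (9.34%) to models that GENCODE marks as to be experimentally tested (TEC). Small RNA genes accounted for 90 snRNA, 78 microRNA, 44 snoRNA and 42 other small RNA regions, and 6 regions lay at immune receptor segments and 2 at bidirectional promoter RNAs. The 1896 regions fell to 1707 distinct genes, and 202 genes had more than 1 region within 1 kb of their starts. Genes whose symbol in the annotation is a model or clone name (Gm, Rik or a clone accession) were nearest to 1604 regions (84.6%), some of which have another name in use, such as Norad for 2900097C17Rik. Most regions, 1397 or 73.7%, lay outside protein-coding genes, 326 (17.2%) lay inside 1 on the strand opposite to the noncoding gene and 169 (8.91%) lay inside 1 on the same strand. The median distance to a protein-coding start was 22260 bp.

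The sequences below show how different these regions were. They are 200-bp windows of the GRCm38.p6 reference centred on the strongest WT summit, read on the strand of the noncoding gene, with matches to searched motifs in capitals. Dnm3os, which lies antisense in Dnm3 and gives rise to miR-199a and miR-214, is shown for the CArG box, the site of serum response factor in smooth muscle genes, that begins 33 bp before its annotated start. Snhg8, a snoRNA host gene, is shown as a strong region with 4 GC boxes (GGGCGG), 1 CCAAT box and 2 TEAD sites (GGAATG). Its 1 TATA box match (TATAAA) begins 38 bp after its start. Terc encodes the RNA template of telomerase and has a CCAAT box 27 bp before its start. Xist, the RNA that coats the inactive X chromosome, is shown as a weak region whose summit lay 3 bp before the start. It has a CCAAT box 68 bp before the start and, on the opposite strand, a TATA box match 94 bp before the start. Mir210, a microRNA gene known for its response to hypoxia, is shown for the strongest region of a microRNA, with 2 GC boxes and 2 CCAAT boxes. Their windows are, in order, chr1:162217460-162217659 (plus strand), chr3:123508361-123508560 (minus strand), chr3:96414763-96414962 (minus strand), chrX:103483157-103483356 (minus strand) and chr7:141221717-141221916 (minus strand).
Dnm3os: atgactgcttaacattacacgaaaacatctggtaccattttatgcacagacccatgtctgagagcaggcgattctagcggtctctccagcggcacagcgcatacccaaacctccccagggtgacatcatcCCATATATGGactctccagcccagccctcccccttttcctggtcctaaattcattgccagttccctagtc
Snhg8: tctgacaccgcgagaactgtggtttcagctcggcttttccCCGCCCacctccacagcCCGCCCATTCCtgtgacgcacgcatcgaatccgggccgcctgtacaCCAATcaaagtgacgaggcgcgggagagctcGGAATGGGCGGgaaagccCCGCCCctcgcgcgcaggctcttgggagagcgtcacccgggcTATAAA
Terc: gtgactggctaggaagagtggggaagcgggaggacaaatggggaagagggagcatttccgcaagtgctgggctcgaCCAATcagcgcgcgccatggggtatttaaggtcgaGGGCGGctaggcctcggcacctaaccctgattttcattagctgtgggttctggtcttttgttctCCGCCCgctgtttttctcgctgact
Xist: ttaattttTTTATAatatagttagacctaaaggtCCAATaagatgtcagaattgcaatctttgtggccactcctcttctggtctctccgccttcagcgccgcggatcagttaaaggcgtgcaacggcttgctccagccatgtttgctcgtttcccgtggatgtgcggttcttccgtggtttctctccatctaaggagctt
Mir210: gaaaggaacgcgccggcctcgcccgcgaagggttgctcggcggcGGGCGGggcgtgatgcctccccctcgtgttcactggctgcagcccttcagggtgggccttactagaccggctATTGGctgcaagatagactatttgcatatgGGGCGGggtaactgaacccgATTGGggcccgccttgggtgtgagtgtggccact

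A summit is the base with the most signal in a peak. In protein-coding promoters it lay a median of 120 bp from the nearest start, and in the noncoding promoters a median of 374 bp. It was within 150 bp of the start in 531 of 1896 noncoding regions (28.0%, 95% Wilson interval 26.0 to 30.1; 150 bp included) and in 8763 of 15634 protein-coding regions (56.1%, 55.3 to 56.8). The start itself was inside the region in 867 noncoding regions (45.7%, 43.5 to 48.0) and in 79.0% (78.4 to 79.6) of protein-coding ones. These intervals cover counting error only, and regions of 1 genome are not replicates. The start was inside most often for other long noncoding RNAs (57.0%), antisense RNAs (52.8%) and long intergenic RNAs (50.2%) among classes of over 40 regions, and least often for microRNAs (28.2%), whose annotated start is that of the hairpin and not of the primary transcript.

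The snRNA regions had few summits at the start. Of 90, 27 had the summit 150 to 350 bp upstream of the start, 18 had it 150 to 350 bp downstream and 10 had it under 150 bp from the start, with 15 farther upstream and 20 farther downstream. Among all 1896 members the same counts were 223, 168 and 528. The strongest snRNA region, at Gm25064 (chr9:63132511-63133096), had its summit 247 bp upstream, the strongest snoRNA region, at the U3 gene Rnu3b1 (chr11:87442672-87443077), 229 bp upstream, and the stronger of the regions at the Y RNA gene Rny1 276 bp upstream. These are single regions. Of 44 snoRNA regions, 8 had the summit 150 to 350 bp upstream and 13 under 150 bp from the start. The class and the bins were chosen after these positions were seen, and 17 of the 90 snRNA windows had a near-identical copy elsewhere in the genome, where reads cannot be placed with certainty.

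**Figure D1:**
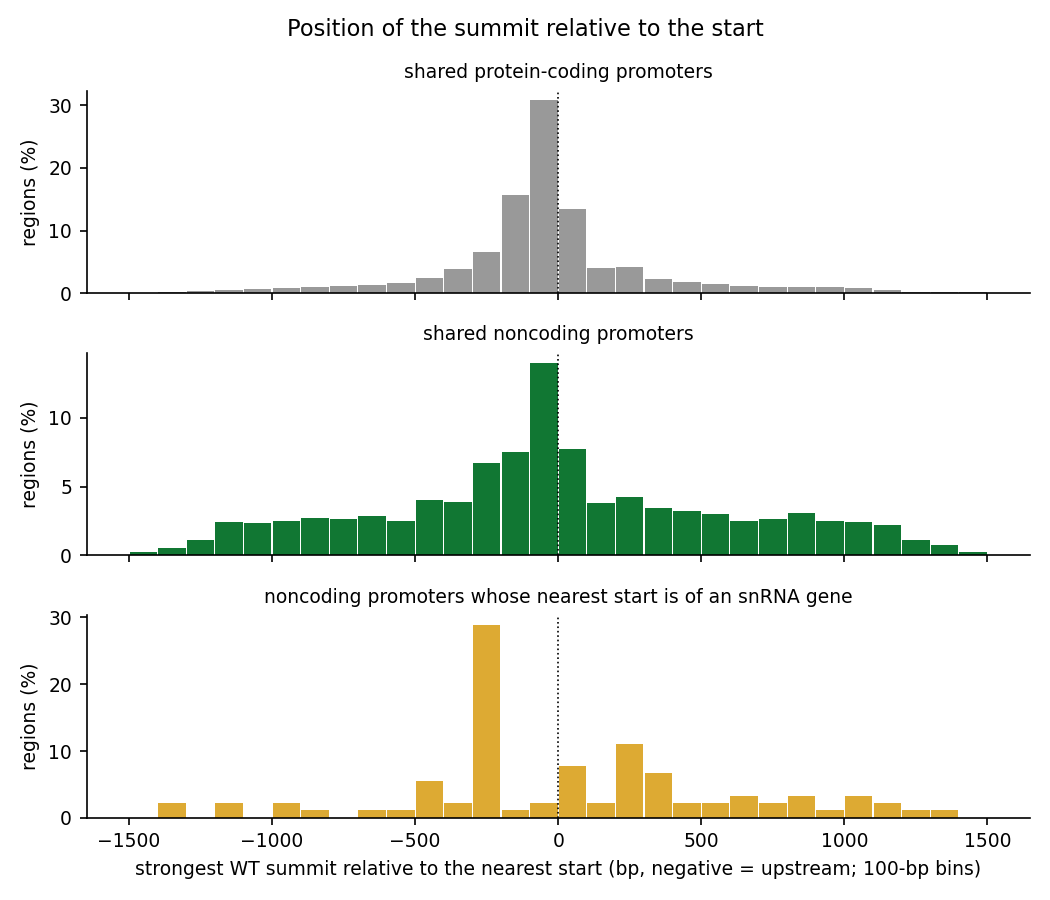
Position of the strongest WT summit relative to the nearest start, in 100-bp bins (x axis, bp, negative is upstream) against the share of regions (y axis, %), for shared protein-coding promoters, shared noncoding promoters and the 90 noncoding promoters nearest to an snRNA start. Protein-coding summits gather just upstream of the start, noncoding summits have their highest bin there too but spread over the window on both sides, and the highest snRNA bin, 28.9%, lies at 200 to 300 bp upstream. The 3 vertical axes have different ranges.

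In sequence the noncoding promoters lay between protein-coding promoters and regions away from any start. Their 300-bp summit windows had a median GC content of 51.3%, beside 62.0% in 15634 protein-coding promoters and 48.0% in 28622 shared regions away from starts. The median ratio of observed to expected CpG was 0.361, 0.750 and 0.231 in the same order. A window was called CpG-rich when its GC content was above 50% and this ratio above 0.6. That held for 363 of 1896 noncoding regions (19.2%, Wilson interval 17.4 to 20.98), for 66.5% of protein-coding promoters and for 3.18% of regions away from starts. Over all merged regions the share was 19.6%. Where the start was inside the region the share was 29.4% (26.5 to 32.5), and where it was outside 10.5% (8.77 to 12.5). For protein-coding promoters these shares were 76.3% and 29.7%. Among classes of over 40 regions, the CpG-rich share ran from 9.52% at other small RNAs and 11.9% at TEC models to 26.5% at other long noncoding RNAs. The intervals of TEC models (7.89 to 17.5) and other long noncoding RNAs (20.9 to 33.0) did not overlap. That of other small RNAs (3.77 to 22.1) overlapped both. These classes were picked after their shares were seen, and the intervals cover counting error only, so this is a description and not a test.

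**Figure D2:**
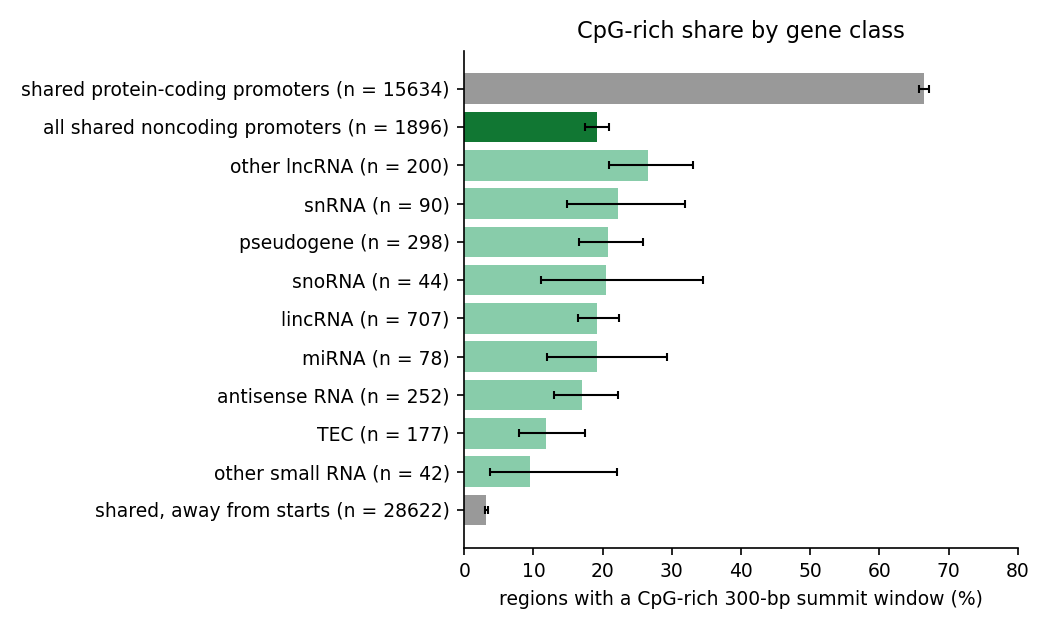
Share of regions with a CpG-rich 300-bp summit window (x axis, %) for each class of noncoding gene with over 40 regions, beside all noncoding promoters, protein-coding promoters and shared regions away from starts. Bars are shares and error bars 95% Wilson intervals. Every noncoding class lies between 9.52% and 26.5%, below protein-coding promoters at 66.5% and above regions away from starts at 3.18%.

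Some of the searched motifs followed the same order and others did not. The GC box, bound by SP factors, was found on either strand in 23.7% of noncoding windows, 60% of protein-coding windows, 9.67% of windows away from starts and 22.6% of all merged regions. The ETS motif CCGGAAG was found in 4.64%, 15.1% and 2.12% of the first 3 sets. The AP-1 motif TGANTCA, bound by FOS and JUN proteins and frequent in enhancers, ran the other way, with 33.1% of noncoding windows, 11.04% of protein-coding windows and 49.2% of windows away from starts. The TEAD motif was found in 20.9% of noncoding windows, 12.6% of protein-coding windows and 24.2% of windows away from starts. That order held in windows of 200 bp (15.9%, 8.32% and 18.4%). Over whole merged regions it was lost, with TEAD shares of 35.34%, 28.89% and 35.27%. The GC box (33.1%, 72.7% and 14.5%) and AP-1 (40.2%, 18.9% and 55.1%) kept their orders over whole regions. The CCAAT box was about as frequent everywhere, at 33.7%, 36.0% and 31.8%, while the TATA box was found in 10.4%, 5.26% and 12.8%, the CTCF core in 7.12%, 3.35% and 7.70%, and the CArG box in 1.37%, 1.26% and 1.96%. Within the noncoding promoters, those with the start inside the region held a GC box in 31.7% and an AP-1 motif in 24.9%, and those with the start outside in 17.0% and 39.9%. CpG-rich members held them in 66.1% and 7.99%. The GC box raises the GC content that defines CpG-rich windows, so those shares are not separate measures, and a match is not a bound site.

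The strength of a region in a library was its rank among the 66679 merged regions by the best -log10 p of that library's entries over it, written as a percent with 0 as the strongest. The median rank of the noncoding promoters was 35.0%, 35.1% and 35.3% in WT 1, 2 and 3 and 35.2%, 35.9% and 34.9% in Pbrm1 cKO 1, 2 and 3. Protein-coding promoters ranked from 15.1% to 18.6% and regions away from starts from 42.0% to 45.4% over the libraries, so the 3 ranges did not overlap. Noncoding regions with the start inside ranked from 26.8% to 28.9%, and those with the start outside from 39.8% to 41.5%. Protein-coding promoters with the start inside ranked from 11.4% to 13.9%, and those with the start outside from 39.1% to 44.8%. With the start outside, the ranges of noncoding and protein-coding regions thus overlapped, and the protein-coding range also overlapped that of regions away from starts. CpG-rich members had medians of 17.7% to 21.9%, and the other members of 38.1% to 39.8%. An entry was found in all 6 libraries for 1884 of 1896 members (99.4%), and 1245 (65.7%) were among the 50000 best-ranked intervals of every library, beside 82.3% of protein-coding promoters and 54.0% of regions away from starts. The median number of Tn5 cuts around a member's summit, recovered from the deposited fold and p, was 37, 33 and 20 in WT 1, 2 and 3 and 41, 35 and 36 in Pbrm1 cKO 1, 2 and 3, so WT 3 was the thinnest library.

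**Figure D3:**
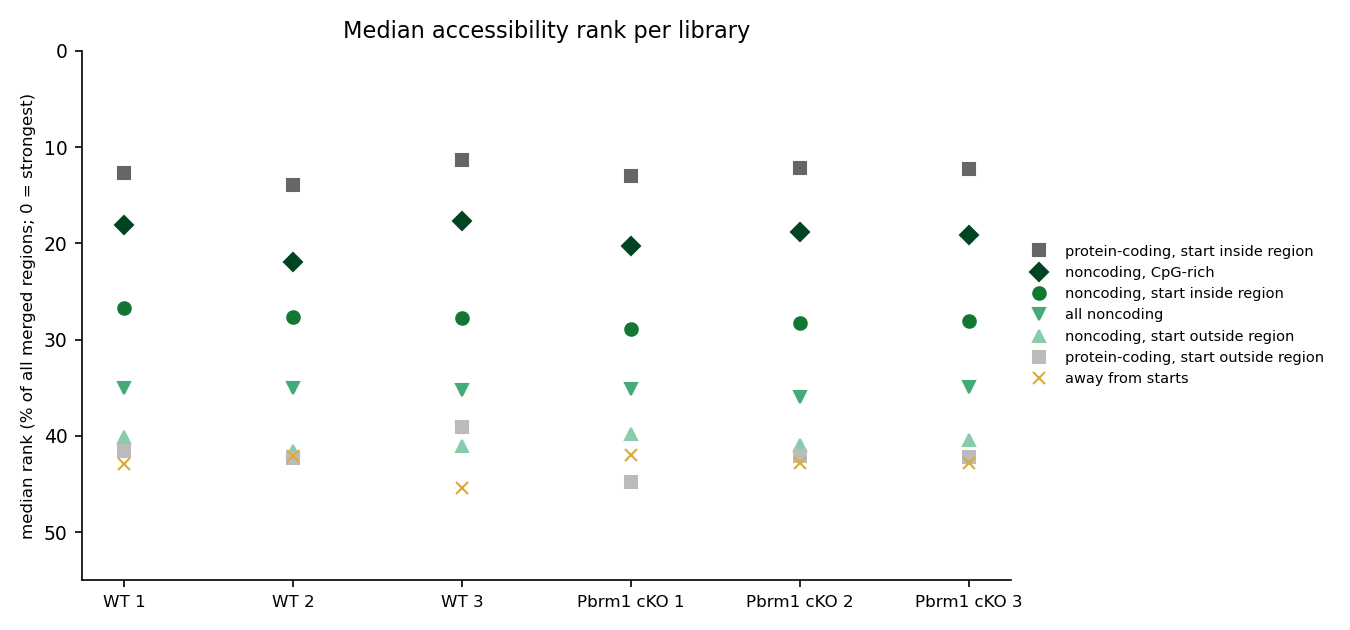
Median rank in each of the 6 libraries (x axis) as a percent of all merged regions (y axis, reversed, 0 is the strongest). Sets are noncoding promoters and their subsets, protein-coding promoters with the start inside or outside the region, and regions away from starts. Each point is the median of 1 set in 1 library. In every library CpG-rich noncoding promoters lie above those with the start inside, and these above all noncoding promoters and those with the start outside.

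The 5 members with the highest mean rank score were pseudogene regions, and each matched the mitochondrial genome. The score is log2 of 66679 divided by the rank, so that 1 more unit is a rank 2 times better. The region at Gm13340 (chr2:22589169-22590210, inside Myo3a) ranked 2, 1 and 1 in WT 1, 2 and 3 and 2, 2 and 1 in Pbrm1 cKO 1, 2 and 3 among all regions of the genome. Its window aligned to mitochondrial DNA over 300 bp with 98.3% identity. A neighbouring region of Gm13340 and the regions at Gm13341, Gm11407 and Gm4076 aligned with 97.3%, 98.3%, 94.7% and 95.3% identity. In all, 7 members aligned to the mitochondrial genome with 91.1% to 98.3% identity, and 6 of them were among the 7 members with the highest mean score. Nuclear copies of mitochondrial DNA cannot always be told from it by short reads, and the part of mitochondrial reads in these ranks was not tested. The cuts at the first Gm13340 summit numbered 1078 to 2474 per library, while its fold over the local background was 10.6 to 11.8. The member ranked 6 by mean score, not named here, had no match. Its score lay between 10.62 and 12.72, the scores of the members ranked 7 and 5. Others without a match included 1700028E10Rik, with a score of 9.43, the long intergenic RNA Gm37494 with 7.96 and the TEC model Gm42690 with 6.82.

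Of 136 gene names on 8 lists of known function, which gave 133 distinct genes in the annotation, 51 genes had a member region within 1 kb of a start, with 81 regions in all. The snoRNA host genes, whose introns give rise to the snoRNAs that guide rRNA modification, stood highest. Of 19 listed, 9 had a member region, with 11 regions of a median mean score of 3.48, beside 1.48 over all 1896 members, and 9 of the 11 were CpG-rich. A further 7, among them Gas5, Snhg1 and Zfas1, had a shared region that the rule left out because a protein-coding start was within 1 kb. The strongest was Snhg8, with scores of 5.84, 8.85 and 6.77 in WT and 5.95, 5.64 and 6.23 in Pbrm1 cKO, so that the genotypes overlapped. Snhg6 had a mean score of 4.59, Snhg5 of 3.82, Snhg17 of 3.50 and Snhg15 of 3.48.

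The RNAs of small ribonucleoproteins had 8 member regions at 5 of 11 listed genes, with a median mean score of 2.74. Vaultrc5, a vault RNA, had a mean score of 5.27, Rn7s2, the RNA of the signal recognition particle, 4.73, and the strongest of 3 regions around Rn7sk, the 7SK RNA that holds back the elongation factor P-TEFb, 4.88. The last of these lay nearest to the start of C920006O11Rik and not to Rn7sk itself. Rmrp, Rpph1, Rn7s1 and Bc1 had shared regions with a protein-coding start within 1 kb. Terc scored 2.33, 2.51 and 2.66 in WT and 1.37, 0.933 and 1.40 in Pbrm1 cKO.

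Nuclear and other well-studied long noncoding RNAs had member regions at 11 of 12 genes, and Tug1 had a shared region beside a protein-coding start. Scores differed widely among them. 1810026B05Rik, the Chaserr transcript beside the remodeller gene Chd2, had a mean of 7.41 in its stronger region, while Malat1, a speckle RNA, and Pvt1, beside Myc, had 2.66 in theirs, and Neat1, the scaffold of paraspeckles, had 1.62 in a region shared with Frmd8os. Oip5os1, listed as 1700020I14Rik, had 3.96 and Norad, listed as 2900097C17Rik, 2.04. In 1810026B05Rik the scores were 8.42, 8.98 and 7.65 in WT and 6.09, 6.79 and 6.55 in Pbrm1 cKO, without overlap but with an adjusted p of 0.323 by limma. Firre, Lncpint and Dleu2 had 4 regions each, from 0.294 to 2.64 at Firre, from 0.396 to 2.57 at Lncpint and from 1.41 to 2.94 at Dleu2.

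Imprinted and X-linked long noncoding RNAs had 12 regions at 8 of 13 genes, with a median mean score of 1.60. Within the X inactivation centre, Ftx had scores of 3.16 and 2.90 in its regions and Jpx 1.92, while Xist itself had 0.459. Kcnq1ot1, the antisense RNA of the Kcnq1 imprinted domain, had 2.88, Peg13 up to 2.01, Airn up to 1.60, Nespas 0.455 and Meg3 0.364. A score of 0.364 corresponds to a mean rank of 77.8%, so Meg3 was among the weakest members. H19, Rian, Mirg, Snhg14 and Tsix had no region within 1 kb.

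MicroRNA host genes had 18 regions at 10 of 14 names, Carmn being listed under an older name too, with a median mean score of 1.92. Carmn, host of miR-143 and miR-145 in smooth muscle, had a region of mean score 2.81, with 3.07, 2.53 and 3.06 in WT and 2.62, 2.64 and 2.92 in Pbrm1 cKO. Mir670hg reached 3.37, Mir17hg, the host of the miR-17 to miR-92a cluster, 2.73, Mir99ahg 2.35 and Mir100hg, listed as 3110039I08Rik, 2.10. Dnm3os, printed above, had 2.11, 2.54 and 2.14 in WT and 1.83, 2.02 and 2.42 in Pbrm1 cKO. Of 35 microRNA genes known from muscle and stroma, 6 had a member region near the hairpin and 3 had a region of 1 genotype's list only. The other 26, among them Mir143, Mir21a and Mir133a-1, had no region within 1 kb. Of 7 epithelial ones (Mir200a, Mir200b, Mir200c, Mir141, Mir429, Mir203 and Mir205) 0 had a region within 1 kb. Mir210 had the strongest, with a mean score of 6.25, followed by Mir199a-2, in the Dnm3os region, with 2.17, Mir22 with 2.14, Mir34a with 1.64, Mir125b-1 with 1.54 and Mir199a-1 with 0.967. Mir34a, a target of p53, scored 1.61, 0.963 and 1.27 in WT and 2.35, 1.96 and 1.70 in Pbrm1 cKO, without overlap, with an adjusted p of 0.300 by limma.

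Mature sequences of these microRNAs, from RefSeq, are shown because they bear on what each locus can regulate. The seed (bases 2 to 8) is in capitals. Both products are printed for miR-199a, and only the product named below for each other locus, so not every seed is shown. All 6 genes were matched, with 10 distinct seeds over 12 mature sequences. Mir199a-1 on chromosome 9 and Mir199a-2 on chromosome 1 give the same mature products and so share their seeds, and the region at Mir199a-2 had the higher score. The other loci had seeds of their own.
miR-199a-5p: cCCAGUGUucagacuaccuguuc
miR-199a-3p: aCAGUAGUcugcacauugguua
miR-125b-5p: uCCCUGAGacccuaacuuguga
miR-22-3p: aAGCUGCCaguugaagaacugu
miR-34a-5p: uGGCAGUGucuuagcugguugu
miR-210-3p: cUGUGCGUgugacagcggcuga

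Long noncoding RNAs beside developmental transcription factor genes were rarely members, at 3 of 25 genes. Hoxd3os1, in the Hoxd cluster, had a stronger region of score 2.48, Nkx2-2os 1.38 and Sox2ot 0.571, and 2 genes had a region of 1 genotype's list only. Another 6, among them Hand2os1, Fendrr, Wt1os and Emx2os, had shared regions that hold or adjoin a protein-coding start, and 14 had no region within 1 kb.

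**Figure D4:**
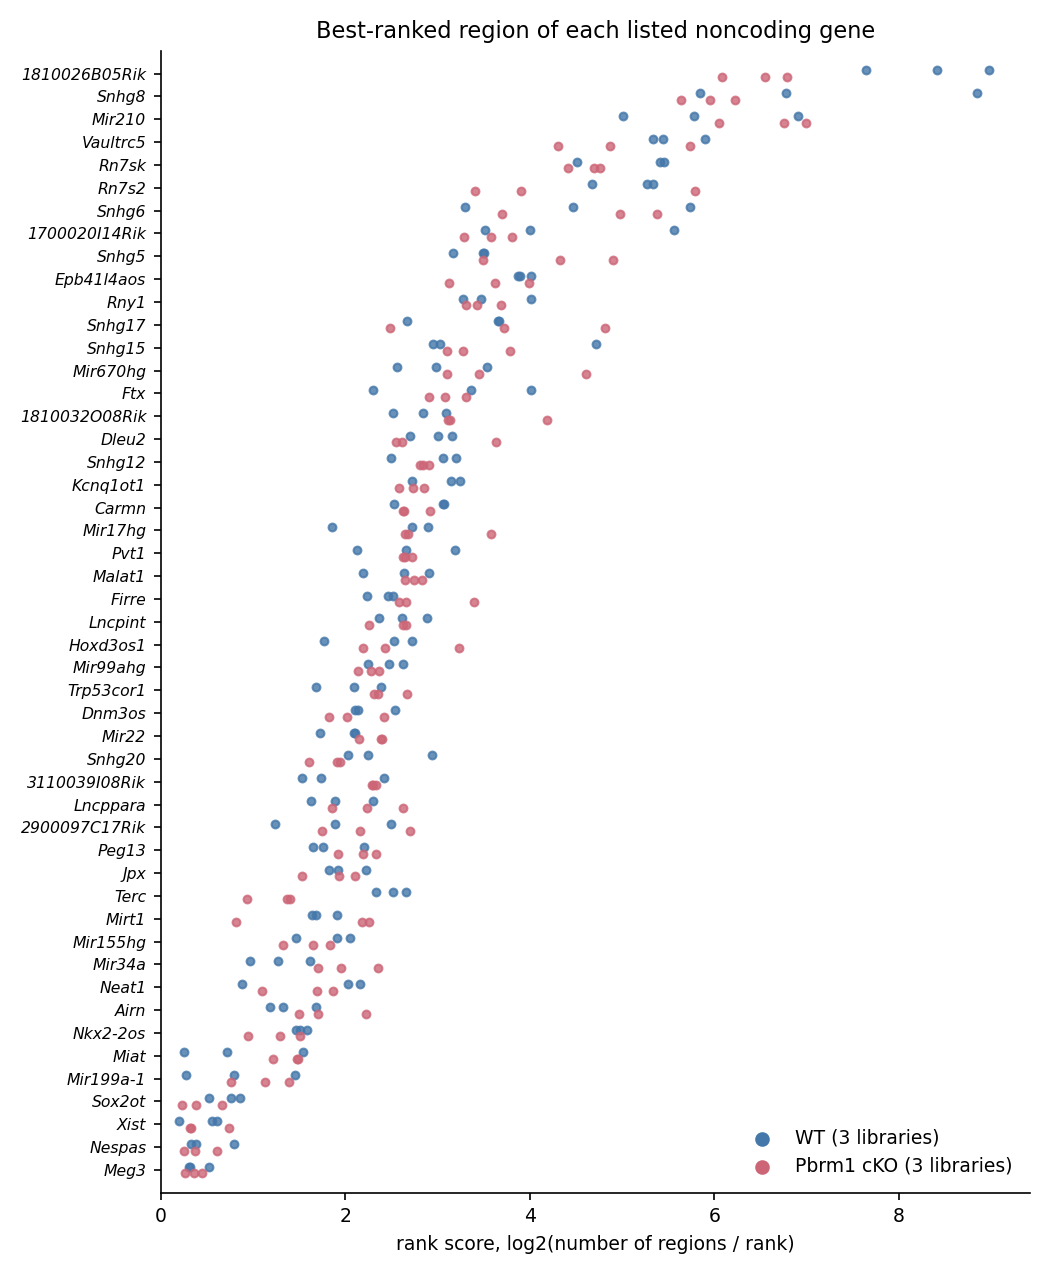
Rank score, log2(number of regions / rank), on the x axis, of the best-ranked region of each listed noncoding gene (rows) in the 3 WT and 3 Pbrm1 cKO libraries, each point being 1 library and a region shared by listed genes being shown once. 1810026B05Rik, Snhg8 and Mir210 head the order, Nespas and Meg3 end it, and for most genes the points of both genotypes overlap.

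The study compared accessibility between the genotypes. Since the rule asked for a call in both, this contrast was used in the choice of members, and the counts that follow are descriptions. With limma on the rank scores of all 66679 regions, two-sided, and an adjusted p under 0.05, 1 member was higher in Pbrm1 cKO and 0 were lower. Over all regions 0.0390% were higher and 0.0285% lower. At an unadjusted p under 0.05 there were 197 members (10.4%), beside 15.9% of all regions. With normal scores of the ranks, which weigh the strongest ranks less, 10 members were higher and 9 lower (0.527% and 0.475%), beside 0.993% and 1.33% of all regions. All 3 Pbrm1 cKO libraries were above all 3 WT libraries in 161 members (8.49%) and below them in 178 (9.39%), beside 10.6% and 10.9% of all regions. The median score difference, Pbrm1 cKO minus WT, was -0.0097 over the members, with quartiles of -0.28 and 0.28, and 0.00055 over all regions. None of the 81 regions at listed genes passed, 7 were higher without overlap and 6 lower without overlap, and the smallest adjusted p was 0.0986, at Terc.

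The called member was CR974462.6, a long intergenic RNA model in the major histocompatibility region, 14957 bp from the nearest protein-coding start, that of the class I gene H2-K1. Its region (chr17:33981100-33981717) scored 1.59, 0.918 and 0.812 in WT and 4.15, 3.21 and 3.39 in Pbrm1 cKO. Every Pbrm1 cKO library was above every WT library, as in 10.6% of all regions. Cuts at its summit were 41, 26 and 14 in WT and 102, 75 and 81 in Pbrm1 cKO. The difference was 2.48 ± 0.37 (SE, n = 3 per genotype) with an adjusted p of 0.0165 by limma. The call was lost without any 1 of the 6 libraries, with adjusted p from 0.0539 to 0.165 and differences from 2.19 to 2.72, and with ranking by fold, at a difference of 2.39 and an adjusted p of 0.109 by limma. It was kept with normal scores, at an adjusted p of 0.000758 by limma.

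The next members by p did not pass. 9330159M07Rik (chr9:88858448-88859412) scored 4.71, 4.14 and 3.66 in WT and 6.97, 7.76 and 7.47 in Pbrm1 cKO, a difference of 3.23 ± 0.60 with an adjusted p of 0.0521 by limma. D930007P13Rik (chr15:103145561-103146212) scored 0.606, 0.751 and 0.982 in WT and 2.42, 2.28 and 2.13 in Pbrm1 cKO, with an adjusted p of 0.0778. In the other direction, A430073D23Rik (chr5:109795909-109796684) scored 4.12, 5.50 and 4.05 in WT and 2.45, 2.27 and 2.29 in Pbrm1 cKO, with an adjusted p of 0.0678. 1700054K19Rik (chr6:112210314-112210982) scored 1.94, 2.72 and 2.44 in WT and 0.752, 0.634 and 1.21 in Pbrm1 cKO, with an adjusted p of 0.0866, and Gm37125 had an adjusted p of 0.0906. The genotypes did not overlap in any of these, which is no separate support, since the members were picked by small p. In Terc all 3 Pbrm1 cKO libraries were below all 3 WT libraries, at ranks of 37.9% to 52.4% beside 15.9% to 19.8%, with a difference of -1.27 ± 0.32 that did not pass. All of them passed with normal scores, at adjusted p by limma from 0.00673 to 0.0313. The windows of 9330159M07Rik and A430073D23Rik each had 1 near-identical copy elsewhere in the genome.

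**Figure D5:**
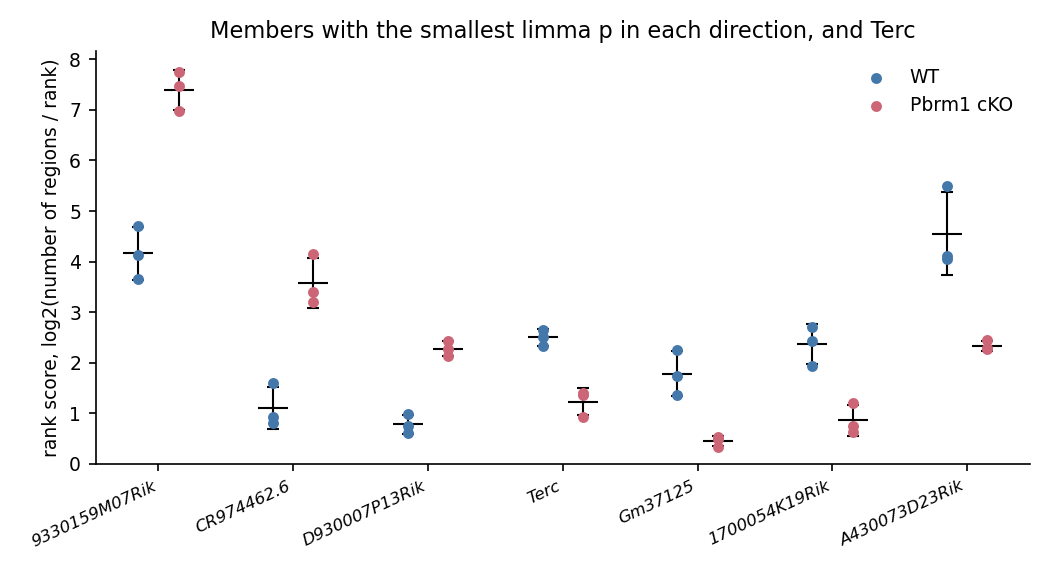
Rank score, log2(number of regions / rank), of the 3 members with the smallest limma p in each direction and of Terc, in 3 WT and 3 Pbrm1 cKO libraries. Points are libraries and bars the mean and SD. The genotypes do not overlap at any of these members, which were picked by small p, and of them CR974462.6 alone passed the adjusted threshold.

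The summit windows of the members with the smallest p are printed so that the regions behind these values can be seen, with motif matches in capitals as above. CR974462.6 (chr17:33981145-33981344 (plus strand)) held a GC box and a TEAD match, 216 and 276 bp before its start. 9330159M07Rik (chr9:88858864-88859063 (minus strand)) held 3 GC boxes, the first of them overlapping the next, and a CCAAT box 13 bp before its start. D930007P13Rik (chr15:103145744-103145943 (minus strand)) held an AP-1 match and a CCAAT box, 924 and 971 bp after its start. A430073D23Rik (chr5:109796279-109796478 (minus strand)) held 2 CCAAT boxes, 59 and 176 bp before its start. 1700054K19Rik held no match and is not printed. CCAAT boxes were thus held by members with differences in both directions, and by 33.7% of all member windows of 300 bp.
CR974462.6: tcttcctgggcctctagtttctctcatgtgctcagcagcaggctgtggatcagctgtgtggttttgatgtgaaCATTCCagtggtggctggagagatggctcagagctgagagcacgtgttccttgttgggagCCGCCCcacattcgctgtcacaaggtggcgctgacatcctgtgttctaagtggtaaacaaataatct
9330159M07Rik: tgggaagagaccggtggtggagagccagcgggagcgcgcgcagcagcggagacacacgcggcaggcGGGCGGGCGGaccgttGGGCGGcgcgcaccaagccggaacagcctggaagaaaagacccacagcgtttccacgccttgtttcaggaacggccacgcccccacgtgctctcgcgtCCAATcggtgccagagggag
D930007P13Rik: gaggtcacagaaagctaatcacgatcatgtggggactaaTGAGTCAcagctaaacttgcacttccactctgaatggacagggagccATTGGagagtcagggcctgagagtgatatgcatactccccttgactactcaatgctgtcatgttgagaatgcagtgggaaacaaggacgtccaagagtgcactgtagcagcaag
A430073D23Rik: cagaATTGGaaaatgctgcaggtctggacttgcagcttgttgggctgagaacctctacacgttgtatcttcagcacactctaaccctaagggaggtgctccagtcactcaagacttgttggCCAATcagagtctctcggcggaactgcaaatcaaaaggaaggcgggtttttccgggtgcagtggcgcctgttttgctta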

How the data were processed

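ATAC-seq was done on 3 WT and 3 Pbrm1 cKO libraries. Per the labels and the study's methods, the authors trimmed reads with cutadapt, aligned them to GRCm38 with Bowtie2, and called peaks with MACS2 in the ENCODE pipeline. The deposited lists give fold over background, a ratio, and -log10 p per entry, for each library (p of 0.01, best 300000 entries) and for each genotype pooled (IDR 0.05). The deposited files used here give no read counts, so ranks took the place of the count test.

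Within each library the 66679 merged regions were ranked by best -log10 p, with regions without an entry tied last, and log2(number of regions / rank) was tested with limma 3.58.1 (R 4.3.3, trend, two-sided, Benjamini-Hochberg over all regions). The fit was also run on simulated scores with independent noise and known shifts. That run checked the code and cannot show how the fit behaves on these ranks. Summit windows of 300 bp were read from GRCm38.p6, whose chromosome lengths held all regions, and minimap2 found copies (at least 95% identity over 90% of the window). Named regions were those at listed genes, the 5 with the highest mean score, the 3 with the smallest p in each direction, the highest of each class and those nearest the 1 kb limits. Of 136 listed names, 6 were matched through RefSeq synonyms and 2 were not matched. Alternatives changed the distance, the starts, the gene types, the overlap, the ranking, the score, the window and the libraries. The members and lists were chosen with earlier results of these data known. Cuts were whole numbers within 0.05 for all members with an entry.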

Additional observations from a re-analysis of the deposited data

How the results depend on the processing

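The number of members was 1485 with a distance of 500 bp, 2026 with the first base of each gene only, 1432 without pseudogenes, immune receptor segments and TEC models, 1810 with each list covering at least 50% of the region and 1481 with the stronger part of each list. Members called numbered 1 in the reported fit (0.0527%, beside 0.0675% of all regions), 19 with normal scores (1.00%, beside 2.33%), 0 with ranking by fold (beside 0.00600%) and 0 in each of the 6 fits without 1 library (beside 0.00300% to 0.0300%). Among regions with an entry in all 6 libraries, and among the upper part by mean score, the number was 1 (0.0531% and 0.0731%, beside 0.0321% and 0.0480% of the regions tested). Replicate numbers did not pair the libraries (correlations of -0.0029, -0.055 and 0.0091), and with a replicate block 3 members were called (CR974462.6, 9330159M07Rik and A430073D23Rik; 0.158%, beside 0.196% of all regions), or 19 with normal scores and the block (1.00%, beside 2.13%). Normal scores without 1 library, chosen after seeing the data, gave from 1 (without Pbrm1 cKO 1; 0.0527%, beside 0.226% of all regions) to 20 (without WT 3; 1.05%, beside 2.66%), with 8 without WT 1 (0.422%, beside 0.639%), 10 without WT 2 (0.527%, beside 1.14%), 3 without Pbrm1 cKO 2 (0.158%, beside 0.463%) and 10 without Pbrm1 cKO 3 (0.527%, beside 1.68%). The cause of these changes was not tested. The median difference of the members was -0.0007 with normal scores, which have another scale, -0.0626 with ranking by fold and -0.0267 to 0.0006 without 1 library. Of the differences of 7 named members none reversed with ranking by fold. The fits without 1 library, with normal scores or with the block could not reverse them, since the genotypes did not overlap at these members. Ranks carry no amount, depth was recovered at summits only, and pooled lists give no spread.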
